A study of Ovis aries with 6 samples.

Results

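The regions described here are 1120 stretches of the sheep autosomes that the authors listed as unmethylated regions (UMRs) in lamb fat and that held only low-methylated regions (LMRs) in fetal fat. They were chosen by where the methylation calls of the lists lie. Each is a lamb UMR on chromosomes 1 to 26 that shares at least 1 base with a fetal LMR and none with a fetal UMR, and they make up 5.28% of the 21199 autosomal lamb UMRs. They are called switched regions below. Of the other lamb UMRs, 19952 shared a base with a fetal UMR (shared UMRs) and 127 met no fetal UMR or LMR. The lists carry 1 entry per stage and no value per animal, so the switch itself has no replicate.

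The data are whole-genome bisulfite reads from perirenal adipose tissue, the fat around the kidney, of 6 untreated wild-type Merino sheep. The 3 lambs, with tissue labelled white adipose, were killed 89 days after birth according to the sample labels and 80 days according to the series text. The 3 fetuses, with brown adipose as the label, were taken 132 days post conception in a gestation of 150 days. Each animal had its own dam, and whole tissue was used, so a changed mix of cell types and a changed level within a cell type cannot be told apart. The sample descriptions end in VEH for each lamb and in TV for each fetus; what these tags stand for is not given, and it cannot be told apart from stage. Covering reads summed over CpG positions ran from 136938075 to 209550245 in lambs and from 140953569 to 195240369 in fetuses. Methylation of whole-tissue DNA gives no marker level, so the tissue labels could not be checked against marker genes.

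In mammals most CpGs are methylated, and the exceptions are often regulatory DNA. UMRs are typically CpG-rich promoters that stay free of methylation in most cell types. LMRs are typically CpG-poor stretches of intermediate methylation at enhancers, where bound transcription factors keep the level down in the cells that use them. Around birth the perirenal fat of sheep is brown adipose tissue, which burns fat for heat through the uncoupling protein UCP1, and it is then replaced by white adipose tissue, which stores fat. The comparison of the stages bears on which regulatory stretches lose or gain methylation through that replacement.

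The UMR and LMR lists were separated by CpG number in both stages. Every autosomal UMR of either stage held at least 30 CpG positions and every LMR held 5 to 29. A switched region is therefore a low stretch that held fewer than 30 CpGs per listed piece in the fetus and at least 30 in 1 piece in the lamb. The switched regions lay close to that border. They held a median of 34 CpGs in lambs (quartiles 31 and 40), against a median of 26 in the fetal LMRs below them, summed per region (quartiles 20.8 and 29). Exactly 30 CpGs were held by 194 of them, and 30 to 34 by 590, or 52.7%, against 6.92% of the shared UMRs. In 453 regions the largest fetal LMR already had 25 to 29 CpGs, and in 107 it had 5 to 9.

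**Figure D1:**
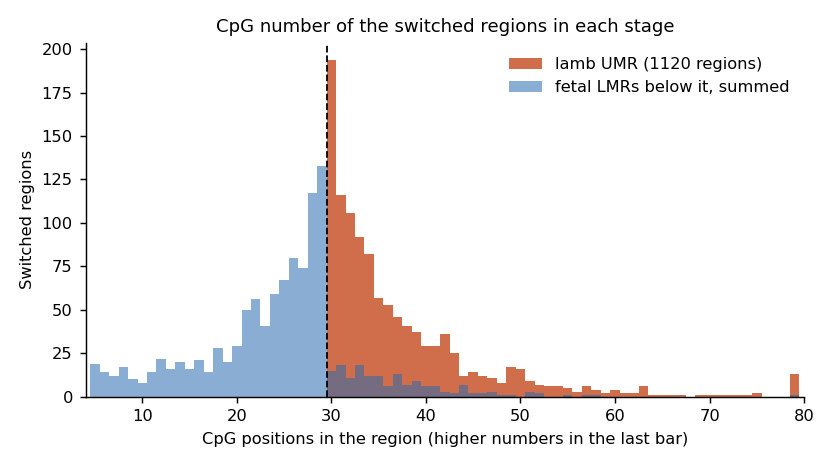
CpG positions per switched region (x axis) against the number of regions (y axis), for the lamb UMR and for the fetal LMRs below it summed; the dashed line marks the border of 30 CpGs. The lamb bars pile up at 30 CpGs and the fetal bars just under it, and 163 regions have fetal LMRs that sum to 30 or more because several were listed.

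Most switched regions were a wider version of 1 fetal LMR, and 34.2% joined several. In 737 regions there was 1 fetal LMR, in 348 there were 2, in 33 there were 3 and in 2 there were 4, which makes 1540 fetal LMRs in all. The lamb UMR reached past the fetal LMRs at both ends in 350 regions and at 1 end in 614, while in 156 regions the fetal LMRs reached as far or farther at both ends. The median length was 1244 bases in lambs and 859 bases for the summed fetal LMRs, with a median ratio of 1.43 per region. Fetal LMRs covered a median of 66.4% of a switched region (quartiles 49.6% and 81.7%). The median gain was 10 CpGs (quartiles 5 and 18), and 16 regions held fewer CpGs in lambs than their fetal LMRs together. At the limits of the rule, the 3 smallest overlaps were 1, 17 and 24 bases, and the 3 lamb UMRs closest to qualifying lay 10, 36 and 83 bases from a fetal LMR.

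The share of fetal LMRs that lay in a switched region went with their CpG number. Of 108524 autosomal fetal LMRs 1.42% lay in a switched region, 68.8% in a lamb LMR and 29.4% in no lamb region. The share in a switched region was 0.531% of fetal LMRs with 5 to 9 CpGs, 1.13% with 10 to 14, 2.14% with 15 to 19, 5.45% with 20 to 24 and 14.8% with 25 to 29. It was 27.1% of the 502 LMRs with 29 CpGs, and 68.5% of these LMRs lay in a lamb LMR. Seen from the lamb list, 43.7% of the 444 lamb UMRs with exactly 30 CpGs were switched regions, 29.3% of those with 30 to 34 CpGs, and 0.68% of those with 50 or more. The opposite class, 1442 fetal UMRs that met a lamb LMR and no lamb UMR, followed the same border. It held 51.9% of the fetal UMRs with exactly 30 CpGs and 0.868% of those with 50 or more.

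**Figure D2:**
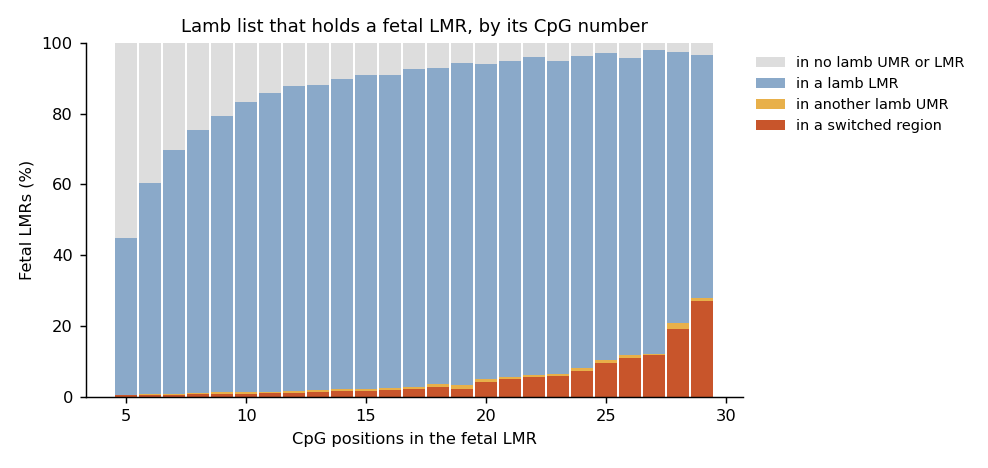
Share of fetal LMRs (y axis, %) found in each kind of lamb region, by the CpG number of the fetal LMR (x axis). The share in a switched region, the lowest bar segment, grows toward the border and reaches 27.1% at 29 CpGs.

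The switched regions were not free of methylation in lambs. The methylation level is methylated over covering reads, summed per animal, over usable CpGs, meaning those that 5 or more reads covered in every animal. Over the 10015 usable of 42908 CpGs, lambs 1 to 3 were at 29.996%, 30.2% and 30.5%, and fetuses 1 to 3 at 35.02%, 34.8% and 33.9%. All lambs were below all fetuses, with means of 30.2% ± 0.239 in lambs and 34.6% ± 0.590 in fetuses (SD, n = 3 each). Lambs minus fetuses came to -4.37 percentage points. Shared UMRs stood far lower, at 9.63% ± 0.0738 in lambs and 9.51% ± 0.155 in fetuses, and shared UMRs with 30 to 40 CpGs were at 19.3% ± 0.407 in lambs and 18.5% ± 0.574 in fetuses (SD, n = 3 each). Lamb LMRs that met a fetal LMR and no fetal UMR (shared LMRs) were at 28.4% ± 0.519 in lambs and 28.2% ± 0.703 in fetuses (SD, n = 3 each). The switched regions thus stood near the LMRs in level in both stages, and not near the UMRs that the lamb list counts them with. Of 898 switched regions with at least 3 usable CpGs, 35 had a lamb mean under 10%, or 3.898%, against 56.0% of shared UMRs. Their median lamb mean was 31.2% (quartiles 23.5% and 38.5%) and their median fetal mean 36.1% (quartiles 25.1% and 44.9%).

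Because the lists were called from these same animals, a lower lamb level in switched regions is part of how they were chosen, and the values are a description. No p-value is given for these differences, because a lower lamb level and a gap to classes listed alike in both stages follow from the choice. The change in switched regions was -4.49 points beyond that in shared UMRs and -4.56 points beyond that in shared LMRs. The same holds for the added CpGs given next and for the bases dropped in the opposite class, since 1 list holds them and the other does not. Both lists held the core and the remaining bases of the opposite class. These still lie in regions chosen by this contrast, which favours their direction, so no p-value is given for them either.

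The switched regions divide into bases that both lists held and bases that the lamb list had added, where a low level in lambs and not in fetuses is what the split selects. The core, meaning bases listed in both stages, was at 25.1%, 25.4% and 25.4% in lambs and 26.8%, 26.7% and 25.9% in fetuses, a difference of -1.20 points. The added CpGs fell into bridges between fetal LMRs and new edges outside them. Bridges were at 44.8%, 44.3% and 43.6% in lambs and 57.4%, 56.4% and 54.5% in fetuses, a difference of -11.8 points. Lambs and fetuses did not overlap in the core or in the bridges. Edges were at 40.9%, 40.9% and 42.3% in lambs and 54.2%, 53.9% and 54.0% in fetuses, a difference of -12.6 points, also without overlap. Bridges held 10.7% of the CpGs of the switched regions, edges 28.5% and the core 60.8%. Of the usable CpGs, on which the levels rest, bridges held 9.11%, edges 20.2% and the core 70.7%. Added CpGs together averaged 42.3% ± 0.412 in lambs and 54.7% ± 0.517 in fetuses (SD, n = 3 each). They were above the core in both stages. Fetal LMR bases left outside the lamb UMR went the other way, at 51.6% ± 2.28 in lambs and 41.9% ± 1.93 in fetuses over 247 usable CpGs (SD, n = 3 each).

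**Figure D3:**
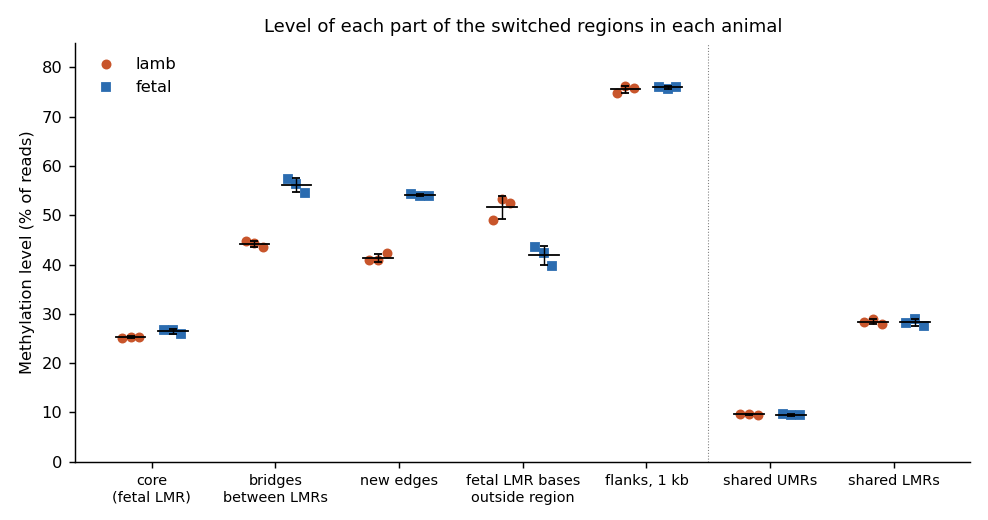
Methylation level (y axis, % of reads) in each animal for the parts of the switched regions, the flanks, and the shared UMRs and LMRs; points are animals, lamb left of fetal, with the mean and SD in black (n = 3). Lamb minus fetal means are -11.8 points in bridges, -12.6 in edges and -1.20 in the core, and lambs overlap with fetuses in the flanks.

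Just outside the switched regions the animals of the 2 stages overlapped. CpGs within 1000 bases of a switched region and in no listed UMR or LMR were at 74.8%, 76.2% and 75.8% in lambs and 76.1%, 75.6% and 76.1% in fetuses. The difference of -0.354 points was smaller than the SD between lambs of 0.732 points (exact permutation p = 0.7, two-sided). Without lamb 1 the difference was 0.0490 points. With 3 animals against 3 this p cannot go below 0.1. Flank CpGs lie in no UMR or LMR of either stage, so that choice favours a small difference and the test cannot show that the stages are alike there. Across the edge the level dropped over short distances. In the first 100 bases outside it was 62.4% in lambs and 63.4% in fetuses, and in the first 100 bases inside 36.9% in lambs and 43.5% in fetuses. The gap was -6.56 points in that inner bin and between -2.56 and -4.41 points from 200 bases inward. The edges are those of the lamb list, so CpGs added by that list lie in the first bins by construction.

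**Figure D4:**
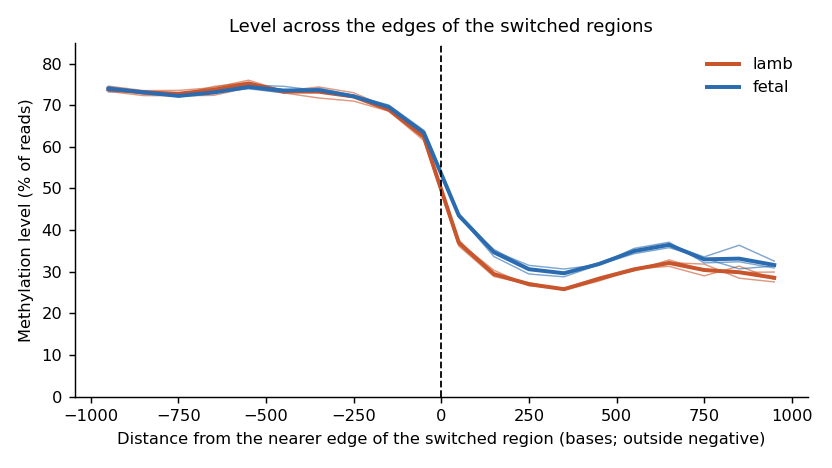
Methylation level (y axis, % of reads) by distance from the nearer edge of a switched region in bins of 100 bases (x axis, outside negative); thin lines are animals and thick lines stage means. Lamb and fetal lines run together outside and separate just inside the edge, with lambs at 36.9% and fetuses at 43.5% in the first bin.

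Regions that started from a small fetal LMR differed most. Where the largest fetal LMR had 5 to 9 CpGs, the level was 39.9% ± 0.407 in lambs and 48.7% ± 1.31 in fetuses, a difference of -8.86 points. With 25 to 29 CpGs it was 26.3% ± 0.203 in lambs and 29.1% ± 0.463 in fetuses, a difference of -2.71 points (SD, n = 3 each). The classes between ran in order, at -7.41, -5.78 and -4.46 points for 10 to 14, 15 to 19 and 20 to 24 CpGs. The order ran alongside the gain in CpG number over the fetal LMRs held, a median of 27 in the smallest class and 5 in the largest. Added CpGs are picked by the lamb list alone, so the choice of regions favours this order. Regions with several fetal LMRs were at 32.4% ± 0.293 in lambs and 37.2% ± 1.16 in fetuses, and those with 1 at 28.8% ± 0.555 in lambs and 32.9% ± 0.211 in fetuses (SD, n = 3 each).

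The opposite class was chosen by the reverse change between the lists, which favours the sign of its values. Fetal UMRs that met a lamb LMR and no lamb UMR were at 36.4%, 37.1% and 35.4% in lambs and 30.4%, 31.4% and 29.5% in fetuses, a difference of 5.92 points. In the bases that both lists held the level was 28.1% ± 0.598 in lambs and 25.2% ± 0.998 in fetuses, and in the bases that the lamb list had dropped it was 54.9% ± 1.44 in lambs and 42.1% ± 0.790 in fetuses (SD, n = 3 each). The difference was -12.4 points in the added bases of the switched regions and 12.8 points in the dropped bases; both sets are picked by being listed in 1 stage only. The change in switched regions minus that in the opposite class was -10.3 points, a gap that the opposite choices fix. Both classes had a median of 34 CpGs, and their median lengths were 1244 bases for switched regions and 1350 bases for the opposite class. The switched regions were 1120 lamb UMRs, which held 1540 fetal LMRs, and the opposite class was 1442 fetal UMRs. Counted as UMRs the opposite class was larger, at 1442 of 21446 fetal UMRs against 1120 of 21199 lamb UMRs. Its share was 38.1% against 29.3% at 30 to 34 CpGs, and 0.868% against 0.68% at 50 or more. Counted as fetal pieces the order was the reverse, at 1540 fetal LMRs against 1442 fetal UMRs. The lamb LMRs met by the opposite class were not counted. The lists have no replicate, so whether more pieces crossed the border in 1 direction was not tested.

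Region by region, no switched region passed the test over all listed regions. UMRs and LMRs of both stages were merged, each switched region falling into a merged region of its own that includes any fetal LMR bases past its ends, and 906 of the 1120 had at least 3 usable CpGs. Methylated and unmethylated reads were tested in a quasi-binomial model whose dispersion was moderated with limma, and p-values were adjusted by Benjamini-Hochberg over all 78994 merged regions. Here 0 switched regions reached an adjusted p under 0.05 with 10 points of difference. The background was 4 regions, or 0.00506%. At an unadjusted p under 0.05 there were 159 switched regions, against 114 with edgeR and 68 with limma on log2 ratios, both of which also called 0. Over all 78994 merged regions there were 8967, against 8161 with edgeR and 8034 with limma. The share among the 906 was thus above that over all merged regions in the main model and with edgeR, and below it with limma. Of these 159, 143 were lower in lambs, or 15.8% of those tested, where the background is 4.13% of all merged regions, and 16 were higher, or 1.77%, where the background is 7.22%. The rule favours a lower lamb level in these same animals, so these shares describe the choice of regions. The 2 sets also differ in depth of data. Regions that hold a switched region had a median of 10 usable CpGs and 89 reads per animal, against 5 and 48.2 over all merged regions.

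Single regions differed in both directions. The median difference was -3.51 points in regions that hold a switched region and 0.823 points over all merged regions, with quartiles of -8.42 and 1.12 points in the regions that hold a switched region. Animals of the same stage had a median SD of 5.97 points, over a median of 89 reads per animal. All lambs lay below all fetuses in 136 of the 906, or 15.01%, against a background of 6.15%, and all lambs lay above in 21, or 2.32%, against 9.8%. A mean at least 10 points lower in lambs was found in 179, or 19.8%, against 9.23%. Since the rule used this contrast, these shares describe the choice of regions.

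**Figure D5:**
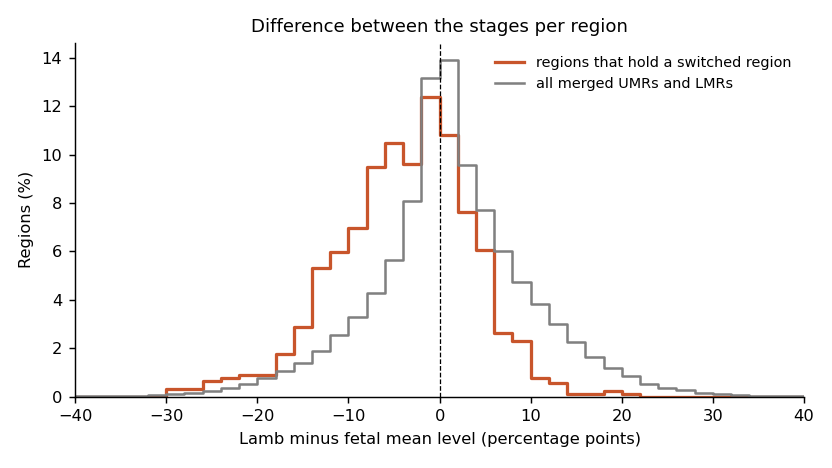
Lamb minus fetal mean level per merged region in percentage points (x axis) against the share of regions (y axis, %), for the regions that hold a switched region and for all merged UMRs and LMRs. The switched regions centre at -3.51 points and all merged regions at 0.823 points, and both sets spread to each side of 0.

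The authors' differentially methylated regions, deposited as a hypo and a hyper list with no stated direction between the stages, touched few switched regions. Of the switched regions 23, or 2.05%, shared a base with the authors' hypo list and 0 with the hyper list, against 172 (0.862%) and 96 (0.481%) of the shared UMRs. In the opposite class 22 regions (1.53%) met the hyper list and 1 the hypo list. The shares of shared LMRs and of all merged regions that meet these lists were not computed. Among the 22 switched regions in the hypo list with at least 3 usable CpGs, the differences ran from -29.49 to 11.6 points with a median of -11.8. In 13 of them all lambs were below all fetuses, which held for 6.15% of all merged regions. The authors' lists and the rule compare the same animals, so these counts and differences describe the choice of regions. No switched region shared a base with a fetal DNA methylation valley, a long unmethylated stretch, against 475 shared UMRs (2.38%). For lamb valleys the counts were 1 switched region (0.0893%) and 428 shared UMRs (2.15%). The rule leaves out regions that meet a fetal UMR, so it favours a low count at fetal valleys.

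The region with the smallest adjusted p lay on chromosome 17 from 64720158 to 64721701 (Oar_v3.1, as are all positions here). It spans 1544 bases and 42 CpGs and grew from 1 fetal LMR of 5 CpGs, and 633 of its bases lie in the hypo list. Lambs were at 36.1%, 34.8% and 39.5% and fetuses at 54.0%, 56.2% and 61.1%, over 25 usable CpGs and 219 reads per animal. The stages did not overlap, and the difference of -20.3 points had an adjusted p of 0.0713 (quasi-binomial model, limma moderation). The region on chromosome 19 from 59575419 to 59576123, of 36 CpGs from a fetal LMR of 5, had lambs at 24.4%, 37.7% and 28.4% and fetuses at 56.2%, 54.8% and 52.3%. Its difference was -24.3 points and its adjusted p 0.129 in the same test. With a coverage minimum of 3 reads these were the 2 switched regions called, at adjusted p of 0.0309 and 0.0258 in the same test. The background was then 31 of 134108 merged regions, or 0.0231%. The first region was then at 38.2% ± 1.96 in lambs and 55.8% ± 1.51 in fetuses. The second was at 33.98% ± 6.85 in lambs and 59.03% ± 3.13 in fetuses (SD, n = 3 each). The rule chose both regions by this contrast in the same animals, so their p-values are not independent of that choice.

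Among 482 switched regions with at least 10 usable CpGs, 93 had all lambs below all fetuses and 11 had all lambs above. The shares over all merged regions with that many usable CpGs were not computed. The rule favours a lower lamb level, so these counts describe the choice of regions. The 6 largest differences downward ran from -24.3 to -22.1 points. The region on chromosome 26 from 37115268 to 37116668 joined 2 fetal LMRs, with lambs at 23.7%, 15.3% and 21.3% and fetuses at 56.8%, 30.5% and 43.5%. Its fetuses spread more than its lambs. The region on chromosome 6 from 116831381 to 116832628 was at 40.01% ± 11.4 in lambs and 63.5% ± 8.16 in fetuses. On chromosome 19 from 43332077 to 43334278 the level was 29.9% ± 8.86 in lambs and 52.5% ± 4.83 in fetuses, over 11 usable CpGs, and with a minimum of 1 read the difference of -22.7 points was -13.1 points. On chromosome 5 from 41812554 to 41813021, with 61 CpGs in 468 bases, it was 27.3% ± 9.92 in lambs and 49.9% ± 4.40 in fetuses. The remaining region of the 6, on chromosome 1 from 275328820 to 275329310, was at 35.2% ± 7.65 in lambs and 57.3% ± 9.80 in fetuses (SD, n = 3 each).

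The 6 largest differences upward were smaller, from 8.26 to 12.5 points. The widest was on chromosome 24 from 3455304 to 3456526, with lambs at 32.2%, 37.0% and 34.2% and fetuses at 20.4%, 26.9% and 18.5%, although the lamb list counts it as a UMR and the fetal list as LMRs. On chromosome 12 from 47915968 to 47918846 the level was 39.3% ± 5.69 in lambs and 26.8% ± 0.933 in fetuses, with 71.0% of its 62 CpGs without a read in any animal. On chromosome 24 from 8998787 to 9000393 it was 29.5% ± 3.24 in lambs and 20.5% ± 5.92 in fetuses. On chromosome 5 from 5627332 to 5628962 it was 20.3% ± 2.39 in lambs and 11.5% ± 0.828 in fetuses. Chromosome 3 from 104970552 to 104973183 was at 34.2% ± 1.34 in lambs and 25.8% ± 3.20 in fetuses, and chromosome 1 from 2041350 to 2042666 at 24.4% ± 2.49 in lambs and 16.2% ± 4.91 in fetuses (SD, n = 3 each). With a minimum of 1 read the last 4 differences, 8.93, 8.78, 8.43 and 8.26 points, were 5.79, 5.06, 6.97 and 1.41 points, and the first of them was 5.55 points without fetus 3. Over usable CpGs the level of these 6 was higher in all lambs than in all fetuses. Over all reads the stages overlapped in 3 of them, the region on chromosome 5, the one on chromosome 24 from 8998787 and the one on chromosome 1.

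Of the 6 regions named for the hypo list, those not yet described were on chromosomes 3, 1 and 8. On chromosome 3 from 103547068 to 103547927 lambs were at 36.4%, 33.3% and 23.1% and fetuses at 57.1%, 63.5% and 60.6%, over 7 usable CpGs and 54 reads per animal. This difference of -29.49 points was -18.9 points with a minimum of 1 read. On chromosome 1 from 1989242 to 1989914 the level was 37.9% ± 13.4 in lambs and 62.4% ± 12.8 in fetuses, and the difference of -24.5 points was -12.8 points with a minimum of 1 read. On chromosome 8 from 90458655 to 90459349 the level was 33.4% ± 3.64 in lambs and 52.3% ± 5.35 in fetuses (SD, n = 3 each).

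A larger share of switched regions than of shared UMRs lay near the ends of chromosomes, as a count over the lists with no test. Within the last 5 Mb of a chromosome were 25.5% of switched regions and 23.4% of the opposite class, against 11.8% of shared UMRs. Within the first 5 Mb were 11.7% of switched regions, 11.9% of the opposite class and 6.47% of shared UMRs. The share of lamb UMRs that were switched regions ran from 3.73% on chromosome 1 to 9.17% on chromosome 16, where 33 of 360 had switched. Switched regions over 5 Mb from both ends were at 29.7% ± 0.313 in lambs and 33.4% ± 0.619 in fetuses, and those nearer an end at 31.2% ± 0.439 in lambs and 36.6% ± 0.785 in fetuses (SD, n = 3 each). The difference between stages was -3.71 and -5.49 points in these 2 sets; whether they differ was not tested. The nearest fetal UMR was a median of 15168 bases away, and 72 switched regions had one within 1000 bases.

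The switched regions were also split by CpG density and by length. The median density was 2.93 CpGs per 100 bases, against 4.09 in shared UMRs and 1.504 in all fetal LMRs. Among the 280 regions of lowest density, with a median length of 3577 bases, the level was 31.1% ± 0.152 in lambs and 33.7% ± 0.423 in fetuses. Among the 280 of highest density, with a median length of 666 bases, it was 30.8% ± 1.16 in lambs and 37.0% ± 1.13 in fetuses (SD, n = 3 each). In 4 sets of 280 regions the differences ran in order of density, at -2.68, -4.09, -4.82 and -6.20 points. By length they were -4.66 points under 1 kb, -4.84 at 1 to 2 kb, -3.59 at 2 to 5 kb and -2.29 at 5 kb or more. Length and coverage differed between the density sets as well, with 4.88 reads per CpG and animal in the lowest and 6.05 in the highest. The part of each was not tested, and the rule favours a lower lamb level in all sets. The 107 regions of at least 5 kb were at 38.5% ± 0.300 in lambs and 40.8% ± 0.124 in fetuses (SD, n = 3 each), with a mean coverage of 3.097 reads per CpG and animal against 6.34 in the 409 regions under 1000 bases.

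Coverage was thinner where the lamb list had added CpGs. Reads summed over the animals of a stage averaged 19.1 per core CpG in lambs and 21.2 in fetuses, and 14.1 per added CpG in lambs and 16.0 in fetuses. No lamb read fell on 22.55% of added CpGs, against 3.472% of core CpGs and 3.085% of CpGs in shared UMRs. Without a fetal read were 18.8% of added CpGs, 3.215% of core CpGs and 3.01% of CpGs in shared UMRs, so the added CpGs were thinly covered in both stages. In 97 switched regions, or 8.66%, most of the CpGs had fewer than 5 reads summed over the lambs, against 1.77% of shared UMRs. Without these 97 the difference was -4.44 points in the switched regions and -12.5 points in the added CpGs. Since levels use CpGs with 5 reads in every animal, such regions add few CpGs, and the part of coverage in the result was not tested by leaving them out.

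The longest switched regions were thinly covered. The longest, on chromosome 10 from 71707632 to 71801952, spans 94321 bases and 610 CpGs, of which its 4 fetal LMRs held 28. Over all its CpGs it had 21, 63 and 108 reads in lambs and 25, 2411 and 1350 reads in fetuses, and no CpG was usable. Its neighbour from 71305380 to 71361416 spans 312 CpGs and had 40, 103 and 159 reads in lambs and 187, 1343 and 133 in fetuses. Depth in both was uneven between animals and low in all lambs, so no level is compared. On chromosome 1 from 105837854 to 105858817, over 99 CpGs, the reads were 107, 76 and 219 in lambs and 284, 51 and 183 in fetuses. The third largest gain, 226 CpGs, was on chromosome 17 from 72226082 to 72236385, where 90.4% of CpGs had no read and the level was 32.0% ± 21.1 in lambs and 32.5% ± 6.46 in fetuses (SD, n = 3 each). Its difference of -0.429 points was 11.7 without lamb 2 and -7.63 without lamb 3. The largest gains in CpG number thus rest on stretches with few reads.

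The smallest gains were negative, since 2 fetal LMRs together held more CpGs than the lamb UMR that met both. They were -16 CpGs on chromosome 10 from 34473718 to 34474166, -11 on chromosome 14 from 17776790 to 17777908 and -9 on chromosome 2 from 111998772 to 112003917. Their levels were 41.3% ± 13.2 in lambs and 36.1% ± 16.9 in fetuses, 45.3% ± 9.09 in lambs and 32.8% ± 15.8 in fetuses, and 30.5% ± 4.29 in lambs and 26.1% ± 1.01 in fetuses (SD, n = 3 each). In the first 2 the stages overlapped, and with a minimum of 1 read the differences of the 3 were -4.96, 2.90 and 0.223 points. On chromosome 10 the 5.21 points were -2.86 without fetus 2 and 13.99 without fetus 1. On chromosome 14 the 12.5 points were 3.41 without fetus 2 and 8.06 without lamb 2, and on chromosome 2 the 4.43 points were 1.95 without lamb 2. The most bases shared with fetal LMRs were 10657 on chromosome 25 from 2045263 to 2062643, 9237 on chromosome 6 from 80230822 to 80245222 and 9005 on chromosome 5 from 8088018 to 8103224. Over all reads these 3 were at 32.5% ± 3.18 in lambs and 36.0% ± 4.64 in fetuses, 42.6% ± 1.02 in lambs and 44.3% ± 3.14 in fetuses, and 42.9% ± 1.70 in lambs and 41.8% ± 2.17 in fetuses (SD, n = 3 each). All 3 are long, CpG-poor stretches. The fewest shared bases, 1, 17 and 24, belonged to regions on chromosome 3 from 223568706 to 223570099, chromosome 21 from 17183254 to 17183712 and chromosome 20 from 48708079 to 48708421. The one on chromosome 21 had a difference of -4.95 points over 3 usable CpGs, which was -0.899 without lamb 2, -0.913 without fetus 1, -8.04 without lamb 1 and -9.25 without fetus 2. It was at 37.5% ± 1.89 in lambs and 56.8% ± 3.37 in fetuses over all reads (SD, n = 3 each). The one on chromosome 3 had 82.1% of its CpGs without a read.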

How the data were processed

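Whole-genome bisulfite libraries of 3 lambs and 3 fetuses were made with 1 lane of paired reads each, per the labels' protocols, and mapped to Oar_v3.1 per the series text. BWA, Picard, Oar_v3.1 and hg19 stand in the submitters' processing notes without a role. The callers and filters used for CpGs and regions were not given in the sources used here, namely labels, file headers and series text. The authors deposited raw counts of methylated and covering reads per CpG, matched to animals by the sample descriptions, and lists of positions (UMRs, LMRs, valleys, differentially methylated regions) without values. Of 26377052 positions 24936679 were autosomal, and 6163112 had the minimum of 5 reads in each animal; counting precision covers counting error only. Switched regions, comparisons and named regions were chosen with earlier results of these data known. Class levels are sums of methylated over covering reads per animal. The planned exact permutation test over animals is given for the flanks only. It is left out where the choice of regions fixes or favours the direction. The region test is a quasi-binomial model with a likelihood-ratio F test, dispersion moderated by limma's squeezeVar (prior 1.46 on 10.6 degrees of freedom) and not below 1. It was tested on simulated data. Regions were named by rule: up to 6 per direction without overlap of animals and with 10 usable CpGs, up to 6 sharing a base with a differentially methylated region, and 3 each by length, gain and loss of CpGs, and most and fewest shared bases. Alternatives were other coverage minimums, weights, overlaps and tests, and leaving out animals. Gene names and sequences are not reported, as no annotation or genome of Oar_v3.1 was used here. Python 3.11.15, numpy 2.4.6, pandas 2.3.3, R 4.3.3, limma 3.58.1 and edgeR 4.0.16 were used.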

Additional observations from a re-analysis of the deposited data

How the results depend on the processing

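The differences in switched regions, core and added CpGs kept their sign in the settings run, from -0.568 to -5.19, from -0.897 to -1.48 and from -2.26 to -13.4 points, except that the core was 1.34 points higher in lambs with a minimum of 10 reads. That minimum leaves 80, 60 and 20 CpGs. Leaving out regions near chromosome ends, over 10 kb long or thinly covered was chosen after seeing the data. The flank difference ran from -0.665 to 0.0490 points without an animal and was -2.77 points over the 52 CpGs with 10 reads. The region test called 0 switched regions in all settings but the lower coverage minimums. With a minimum of 3 reads it called 2 of 1085 tested, against 31 of all 134108 merged regions, or 0.0231%. With a minimum of 1 read it called 2 of 1119, against 30 of all 153991 merged regions, or 0.0195%. With fetal LMRs over at least 50% of the bases 834 regions remained, and 1048 had no fetal UMR within 1000 bases. Replicate numbers name separate animals: same-numbered animals' deviations correlated by -0.000421, 0.00752 and 0.00332 over merged regions, which does not pair them, and not every animal correlated best with its own number. With the number as a replicate block 0 were called. An unadjusted p under 0.05 was then found in 128 of 906, against 7475 of all 78994 merged regions. The class differences cannot change under this block, since the mean over 3 pairs equals the difference of means. They are -4.37, -1.20, -12.4 and -0.354 points for switched regions, core, added CpGs and flanks. For the comparisons with shared UMRs, shared LMRs and the opposite class they are -4.49, -4.56 and -10.3 points. Of 176 values of 22 named regions under alternatives, 155 stayed within 1 SD, 12 moved further and 9 changed sign, all in 2 regions. On chromosome 10 from 34473718 the 5.21 points became -2.76 at a minimum of 3 reads, -4.96 at 1 read and -2.86 to 13.99 when 1 animal was left out; on chromosome 17 from 72226082 the -0.429 points became 0.547, 0.134 and -7.63 to 11.7 in the same order. The cause was not tested beyond the smaller numbers of CpGs named.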

Other observations

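The X chromosome, which the rule leaves out, held 43 lamb UMRs that met the same list criteria, or 5.81% of its 740, against 5.28% on the autosomes. The 127 lamb UMRs with no fetal UMR or LMR had a median of 38 CpGs over 4611 bases and a summed coverage of 4.69 reads per CpG in lambs and 5.19 in fetuses, and over 219 usable CpGs they were at 44.2% ± 0.967 in lambs and 57.0% ± 3.62 in fetuses (SD, n = 3 each).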
